A study of Homo sapiens with 22 samples.

Results

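The experiment set HN-6 cells given an siRNA against UHRF1 (siUHRF1) against HN-6 cells given a negative control siRNA (siNC), and all genes with a line in the count table were considered. It was chosen by its libraries, 3 with siUHRF1 and 3 with siNC, which are 6 of the 22 libraries of the study. HN-6 is an established human cell line from a squamous carcinoma of the head and neck. In both groups the siRNA acted for 72 h and interferon-β at 1000 U/ml was present for the last 24 h, so no library comes from cells without interferon. The labels give neither the sequence of the UHRF1 siRNA nor how many sequences were used, so loss of UHRF1 and an off-target effect of the siRNA cannot be told apart. The other libraries come from experiments on SMYD3, a lysine methyltransferase. Of these, a SMYD3 siRNA (si1SMYD3 in the labels, siSMYD3 below) with its own siNC, 3 libraries each, and a SMYD3 antisense oligonucleotide (ASO081) with phosphate-buffered saline (PBS), 2 libraries each, serve below to show where the UHRF1 experiment differs. They used the same line, the same interferon treatment and the same knockdown time. A SMYD3 knockout clone and its parental line were not used here.

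UHRF1 binds hemimethylated CpG sites at the replication fork, where the new DNA strand has not yet been methylated, together with methylated lysine 9 of histone H3. It ubiquitinates histone H3 and so brings in DNMT1, the maintenance DNA methyltransferase. Cells without UHRF1 dilute CpG methylation as they divide. The present measurements are of poly(A) RNA and say nothing of methylation itself. UHRF1 is itself a gene that cycling cells express.

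Reads in genes came to 57588142, 60770863 and 60717842 in the siUHRF1 libraries and to 61866667, 62921144 and 59936868 in the siNC libraries. The first principal component of the log2 levels held 74.5% of the variance and separated the groups. The second held 7.09% and set siUHRF1 replicate 1 (-37.1) apart from siUHRF1 replicates 2 (24.7) and 3 (13.2). The study's text calls the replicates biological, and the labels do not tie them to separate cultures or days, so the p-values measure the spread between these libraries. All 12 squamous epithelial markers were measured above the filter on low counts, with a summed level of 6090 to 6480 TPM (a level corrected for gene length and library size) with siUHRF1 and 4000 to 4300 TPM with siNC, while 5 of the 12 rose and 4 fell (median log2 fold change 0.06). Leukocyte markers summed to 31.1 to 32.2 TPM against 22.0 to 26.1 TPM, with CD3E and MS4A1 among those at 0 reads in every library and 6 of 12 markers above the filter. Fibroblast markers summed to 254 to 290 TPM against 83.5 to 88.2 TPM, with THY1 at 0 and 5 of 10 above the filter, of which 1 rose and 2 fell (median -0.41), and COL1A1, the 1 that rose, averaged 229 TPM with siUHRF1 and 38.3 TPM with siNC. Endothelial markers summed to 18.3 to 19.6 TPM against 7.29 to 7.74 TPM, with KDR and CLDN5 at 0 and 6 of 8 above the filter.

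UHRF1 itself had 1.82, 2.65 and 2.04 CPM (reads scaled to the reads in genes of each library) in the siUHRF1 libraries, against 68.2, 64.1 and 66.1 CPM in the siNC libraries. The 3 siUHRF1 libraries lay far below the 3 siNC libraries. The log2 fold change, siUHRF1 over siNC, was -4.85 ± 0.09 (standard error, SE, of the fit; adjusted p = 7.82e-44). Here and below, log2 fold changes run siUHRF1 over siNC with their SE after ±, and "rose" or "fell" means an adjusted p under 0.05 in edgeR's quasi-likelihood test with Benjamini-Hochberg adjustment over all tested genes.

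Expression changed across much of the transcriptome, in both directions and mostly by small amounts. Of 18349 genes tested, 5876 rose (32%) and 5992 fell (32.7%). By at least 2-fold, 1362 rose (7.42%) and 1911 fell (10.4%). The median gene moved by -0.01 on the log2 scale, the middle 50% of genes lay between -0.47 and 0.42, and 5% lay below -1.59 and 5% above 1.25. No chromosome stood far from the rest: the median log2 fold change ran from -0.10 on chromosome 21 to 0.04 on chromosome 7. With nearly 1 gene in 3 past the test in each direction, a count in a gene group carries information only beside those background shares. The background itself moved with level and length: 48.6% of genes rose and 34.7% fell in the quartile of highest level, against 14.3% and 18.7% in the lowest, and 44.2% rose in the quartile of longest exons, against 19.8% in the shortest. Counts in gene lists were not set against a background matched for these.

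**Figure D1:**
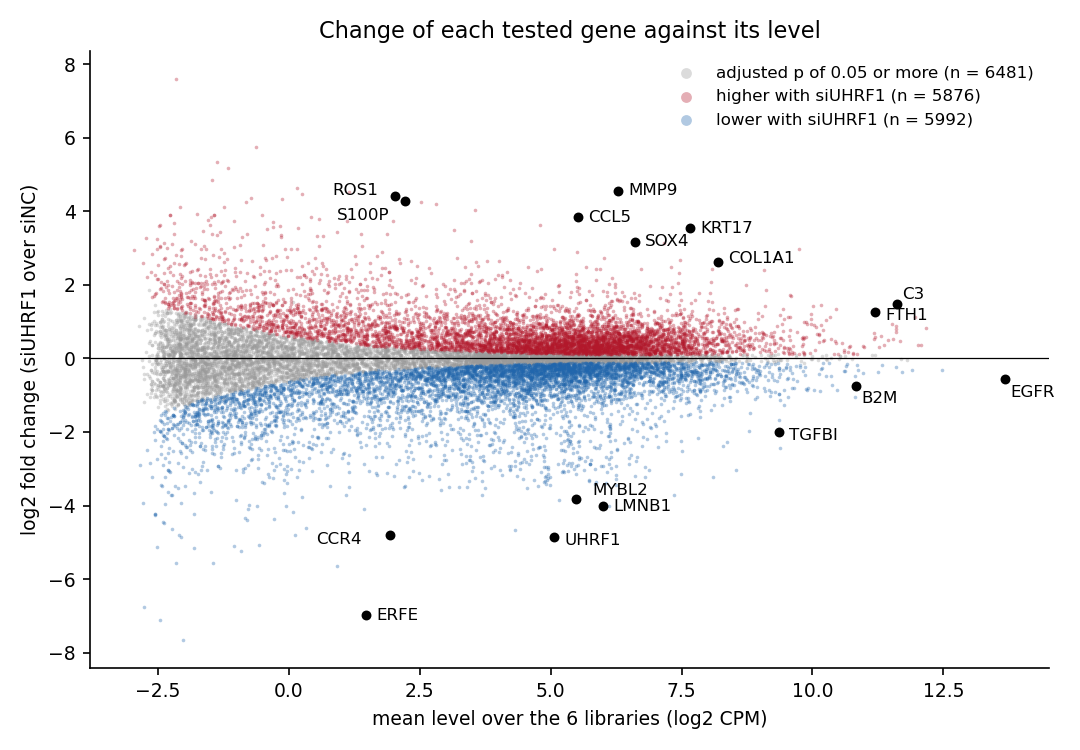
Log2 fold change (siUHRF1 over siNC) of each tested gene on the vertical axis against its mean level over the 6 libraries on the horizontal axis. Red points rose (5876), blue points fell (5992), grey points did not pass the test, and black points with names are genes given in the text, from MMP9 at 4.56 to ERFE at -6.99.

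Among genes averaging at least 1 on the log2 CPM scale, and outside the cell cycle and interferon lists, the largest rise was that of MMP9. MMP9, a gelatinase that degrades matrix, had 155, 146 and 138 CPM with siUHRF1, against 6.90, 6.90 and 5.69 CPM with siNC (log2 fold change 4.56 ± 0.07, adjusted p = 9.91e-45). CCL5, a chemokine that draws T cells, had 84.0, 84.3 and 83.4 CPM with siUHRF1, against 5.80, 7.44 and 5.16 CPM with siNC (3.84 ± 0.08). KRT17, a keratin induced in stressed and basal epithelium, had 373, 367 and 357 CPM with siUHRF1, against 30.7, 36.4 and 31.6 CPM with siNC (3.55 ± 0.06). Genes entered this ranking only if their groups did not overlap, so that separation was set by the choice. In all 3 genes the siUHRF1 libraries were close to each other. S100P, a calcium-binding protein, rose by 4.30 ± 0.17, with 7.52, 8.87 and 9.82 CPM against 0.517, 0.445 and 0.434 CPM. ROS1, a receptor tyrosine kinase, rose by 4.41 ± 0.18, with 8.40, 6.70 and 8.04 CPM against 0.388, 0.445 and 0.300 CPM. Both were close to silent in the siNC libraries. The other rises named by the same rule were GPR132, a G protein-coupled receptor (4.53 ± 0.27), APOBR, an apolipoprotein B receptor (4.26 ± 0.15), NPR1, the natriuretic peptide receptor (4.04 ± 0.11), STX19, a syntaxin (3.75 ± 0.23), ZFHX2, a zinc finger homeobox factor (3.75 ± 0.17), FAM83E (3.63 ± 0.08), MEOX1, a homeobox factor (3.50 ± 0.12), MAG, a myelin glycoprotein (3.38 ± 0.21), RARRES1, a retinoid-responsive gene (3.37 ± 0.18), and the X-linked pseudogene AL354685.1 (4.21 ± 0.15).

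The largest falls, by the same rule, were led by ERFE, which encodes erythroferrone, a hormone that lowers hepcidin. It had 2, 4 and 1 reads in the siUHRF1 libraries, against 314, 349 and 348 reads in the siNC libraries (log2 fold change -6.99 ± 0.30, adjusted p = 2.73e-27). CCR4, a chemokine receptor, had 0.278, 0.296 and 0.165 CPM with siUHRF1, against 6.26, 8.46 and 7.19 CPM with siNC (-4.81 ± 0.20). LMNB1, the nuclear lamina protein lamin B1, had 6.56, 6.99 and 8.25 CPM with siUHRF1, against 129, 121 and 121 CPM with siNC (-4.02 ± 0.07). That the groups do not overlap in these 3 genes was again required by the rule. TERT, the reverse transcriptase of telomerase, fell by 4.10 ± 0.22 on the log2 scale and MYBL2, a transcription factor that activates mitotic genes, by 3.83 ± 0.07. Further falls named by the rule were CDCA7 (-3.85 ± 0.07), NRGN, a calmodulin-binding protein (-3.73 ± 0.25), ESCO2, a cohesin acetyltransferase (-3.72 ± 0.13), MND1, a meiotic recombination factor (-3.58 ± 0.21), SKA3 of the kinetochore (-3.52 ± 0.10), RAD51AP1, a factor of homologous recombination (-3.52 ± 0.08), PIF1, a DNA helicase (-3.51 ± 0.11), C21orf58 (-3.49 ± 0.12) and the transcript AC002401.4 (-3.49 ± 0.24). The rule set aside the lists of cell cycle and interferon genes, yet MYBL2, ESCO2, SKA3, RAD51AP1 and PIF1 act in replication, repair or mitosis.

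Among genes that take many reads, EGFR, the epidermal growth factor receptor, lost the most CPM, a difference not corrected for gene length. It had 10331, 10189 and 10378 CPM with siUHRF1, against 15459, 16065 and 16484 CPM with siNC (-0.56 ± 0.05). GANAB, a glucosidase of the endoplasmic reticulum, fell by 1.04 ± 0.05, B2M, the light chain of MHC class I, by 0.74 ± 0.06, the matrix protein THBS1 by 0.32 ± 0.05 and the chaperone HSP90B1 by 0.31 ± 0.05 on the log2 scale. The largest gains in CPM were of C3, the central complement component, with 4792, 4303 and 4466 CPM against 1795, 1665 and 1626 CPM (1.49 ± 0.05), CCN1 (1.13 ± 0.05) and fibronectin, FN1 (0.83 ± 0.05). SEMA7A, a semaphorin, rose by 1.32 ± 0.05 and FTH1, ferritin heavy chain, by 1.26 ± 0.05. BEST1, on the opposite strand, covers 63.2% of the exon bases of FTH1, and whether the counting used strand is not given in the sources used here.

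**Figure D2:**
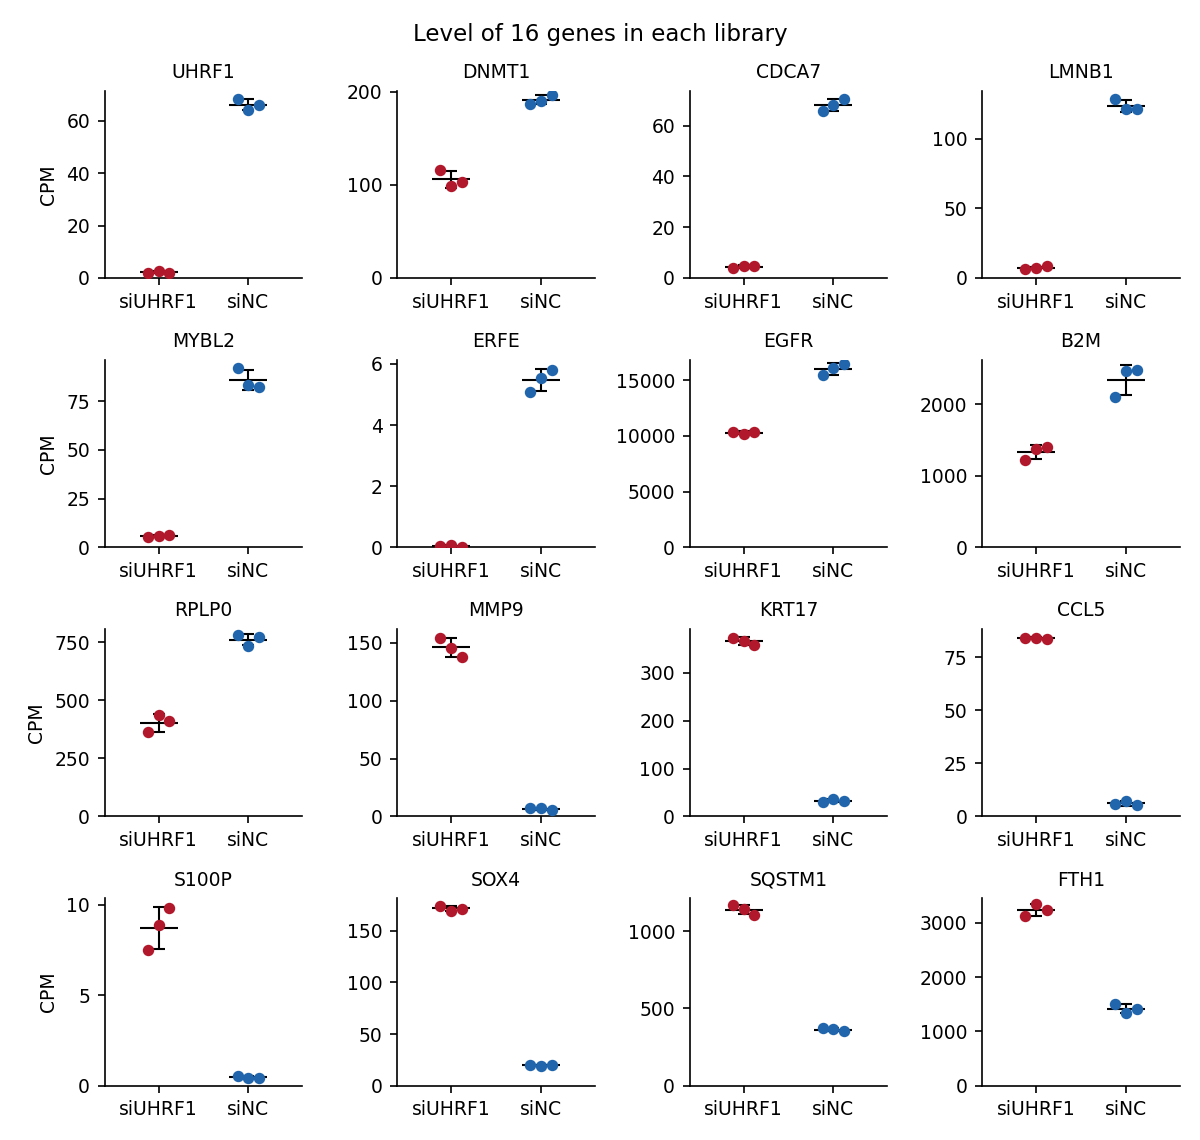
CPM of 16 genes in each library, siUHRF1 (red) left of siNC (blue), with the mean as a bar and the SD over 3 libraries as error bars. The first panel is UHRF1, at 1.82 to 2.65 CPM against 64.1 to 68.2 CPM. The last is FTH1, at 3131 to 3351 CPM against 1340 to 1509.5 CPM. Genes taken from the ranking of largest changes had to have groups that do not overlap.

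Promoter sequences of the largest changes show how unlike these genes are in their content of CpG, the dinucleotide at which UHRF1 acts. Shown are the 3 largest rises and the 3 largest falls of the named genes that have an entry in the RefSeq promoter table (GRCh38.p14), with CDCA7 added as a gene of the methylation pathway. Each window runs from 250 bases before the start of the gene to 50 bases after it, 5′ to 3′ on the strand of the gene, with every CG dinucleotide in capitals. The windows are GPR132 at chr14:105065381-105065680 (minus strand), ROS1 at chr6:117425893-117426192 (minus strand), S100P at chr4:6693628-6693927 (plus strand), ERFE at chr2:238158720-238159019 (plus strand), UHRF1 at chr19:4909251-4909550 (plus strand), CCR4 at chr3:32951394-32951693 (plus strand) and CDCA7 at chr2:173354622-173354921 (plus strand).
GPR132: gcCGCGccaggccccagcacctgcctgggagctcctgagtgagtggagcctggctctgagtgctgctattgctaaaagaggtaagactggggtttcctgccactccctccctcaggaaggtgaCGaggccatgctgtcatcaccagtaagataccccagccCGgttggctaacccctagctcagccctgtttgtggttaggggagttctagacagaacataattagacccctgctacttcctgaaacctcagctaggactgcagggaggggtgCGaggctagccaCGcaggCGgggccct
ROS1: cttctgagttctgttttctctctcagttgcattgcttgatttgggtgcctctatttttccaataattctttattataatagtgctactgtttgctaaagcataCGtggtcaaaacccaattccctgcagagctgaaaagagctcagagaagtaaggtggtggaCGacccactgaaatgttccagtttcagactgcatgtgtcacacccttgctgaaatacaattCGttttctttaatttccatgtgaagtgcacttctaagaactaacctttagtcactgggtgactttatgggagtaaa
S100P: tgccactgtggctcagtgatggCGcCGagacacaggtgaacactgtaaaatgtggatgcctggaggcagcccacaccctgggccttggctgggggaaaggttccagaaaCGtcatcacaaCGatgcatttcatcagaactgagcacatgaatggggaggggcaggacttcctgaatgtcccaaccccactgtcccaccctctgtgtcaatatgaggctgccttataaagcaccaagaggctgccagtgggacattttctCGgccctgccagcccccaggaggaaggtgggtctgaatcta
ERFE: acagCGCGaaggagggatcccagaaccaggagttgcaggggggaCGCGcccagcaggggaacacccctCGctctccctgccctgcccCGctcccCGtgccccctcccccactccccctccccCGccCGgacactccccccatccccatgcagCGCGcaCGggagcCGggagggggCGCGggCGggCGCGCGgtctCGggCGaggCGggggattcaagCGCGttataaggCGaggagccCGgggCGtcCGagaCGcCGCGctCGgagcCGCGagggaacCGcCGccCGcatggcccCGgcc
UHRF1: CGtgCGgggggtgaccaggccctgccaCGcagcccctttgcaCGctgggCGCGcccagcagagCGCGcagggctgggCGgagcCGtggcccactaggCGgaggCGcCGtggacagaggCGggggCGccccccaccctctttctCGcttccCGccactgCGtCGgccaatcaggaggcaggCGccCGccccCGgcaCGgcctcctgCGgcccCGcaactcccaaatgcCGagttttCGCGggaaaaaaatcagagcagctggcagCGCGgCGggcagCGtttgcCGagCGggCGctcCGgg
CCR4: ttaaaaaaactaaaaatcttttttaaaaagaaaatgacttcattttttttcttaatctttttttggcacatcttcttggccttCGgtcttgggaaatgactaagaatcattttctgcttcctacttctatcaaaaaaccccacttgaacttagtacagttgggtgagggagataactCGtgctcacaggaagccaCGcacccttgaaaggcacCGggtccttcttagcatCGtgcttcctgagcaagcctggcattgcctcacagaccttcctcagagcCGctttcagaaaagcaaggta
CDCA7: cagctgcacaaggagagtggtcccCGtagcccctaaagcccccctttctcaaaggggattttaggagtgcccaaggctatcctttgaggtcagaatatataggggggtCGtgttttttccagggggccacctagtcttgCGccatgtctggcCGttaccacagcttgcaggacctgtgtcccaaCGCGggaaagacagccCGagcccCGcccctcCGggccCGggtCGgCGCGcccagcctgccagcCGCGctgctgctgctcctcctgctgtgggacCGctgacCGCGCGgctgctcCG
The rising GPR132, ROS1 and S100P hold 7, 3 and 5 CG in 300 bases. The falling ERFE and UHRF1 hold 38 and 36, CDCA7 holds 20, and CCR4, which also fell, holds 6. UHRF1 is the target of the siRNA, and CDCA7 was added by choice. Without them the falls shown are ERFE, with many CG, and CCR4, with few. The octamer TTTCCCGC, on either strand, is in the windows of UHRF1 and CDCA7 and in none of the other 5.

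Over all tested genes, pooled over level, the CpG count set the rises apart but hardly the falls. A promoter window was available for 11870 tested genes. In the quartile with the fewest CpG (0 to 16), 13.4% of genes rose by at least 2-fold, against 4.06% with 17 to 25, 4.16% with 26 to 34 and 4.05% with 35 to 69 CpG. The share that fell by at least 2-fold was 9.74%, 9.24%, 9.70% and 10.5% over the same quartiles. The 768 genes that rose by at least 2-fold had a median of 15 CpG, against 26 in the 1160 that fell by as much and 25 in all 11870. The excess of rises at few CpG was there at every level of expression: 17.4% against 9.02% to 11.9% in the quartile of lowest level, and 14.3% against 5.04% to 5.54% in the next quartile. Within each level quartile falls were more frequent at the most CpG than at the fewest, as in the lowest level, with 22.8% against 15.9%. These are shares of genes in 1 experiment, given without a test.

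**Figure D3:**
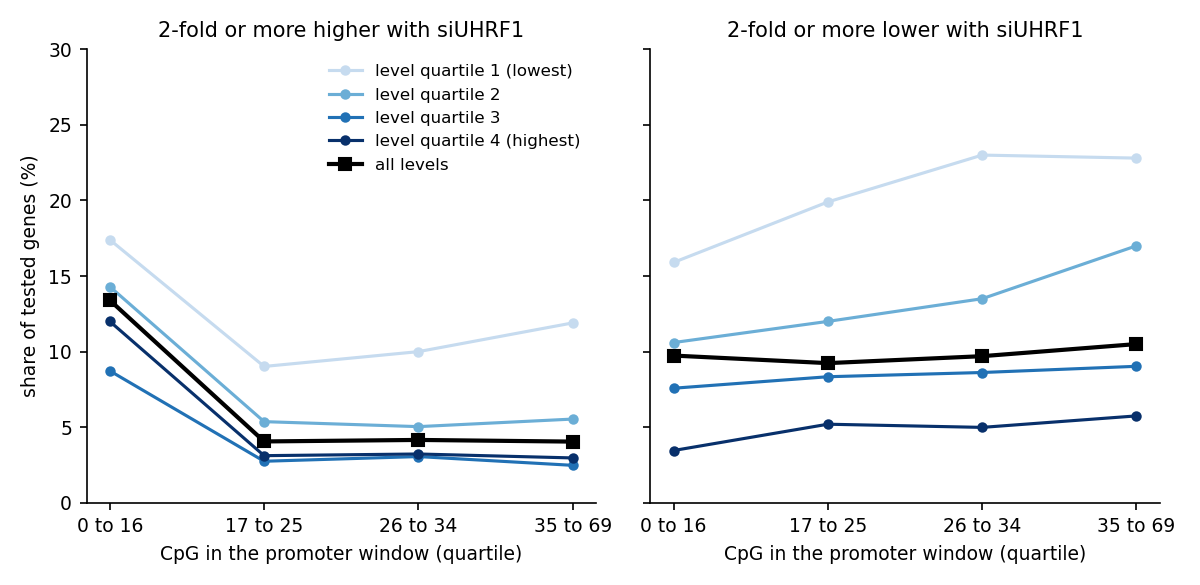
Share of tested genes that rose (left) or fell (right) by at least 2-fold with siUHRF1, by the quartile of CpG count in the 300-base promoter window, for all levels (black) and within each quartile of mean level (blue shades, darkest the highest). Rises are most frequent at 0 to 16 CpG (13.4% for all levels), while falls for all levels stay between 9.24% and 10.5%. Within each level quartile falls are more frequent at the most CpG than at the fewest.

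Short sequence matches in the same windows also differed between the sets. TTTGGCGC or TTTCCCGC, known as sites of the E2F family of cell cycle factors, searched on both strands, was in 2.21% of windows of genes that rose by at least 2-fold and 7.67% of those that fell by as much, against 3.58% of all 11870 windows. TTTGAA, the core of an element of mitotic gene promoters, was in 12.5% and 17.8%, against 10.0%. TGANTCA, the AP-1 site, was in 8.07% and 4.66%, against 5.06%. A match is a run of letters and not a site shown to be bound. Both octamers hold a CG, which TTTGAA and TGANTCA lack. Windows of the rises held fewer CpG, with a median of 15 against 25 in all windows. The shares were not matched for CpG count, so motif and CpG content cannot be told apart here.

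Genes of the DNA methylation pathway moved in both directions, with the falls larger. Of 19 tested, 5 rose and 9 fell, 5 of them by at least 2-fold, and the median was -0.10. UHRF1, the target of the siRNA, is counted among the 19 and among those 5 larger falls. Of all tested genes 32% rose, 32.7% fell and 10.4% fell by at least 2-fold. DNMT1 had 116, 98.2 and 103 CPM with siUHRF1, against 187, 190.4 and 196 CPM with siNC (-0.78 ± 0.05). CDCA7, which brings the remodeller HELLS to nucleosomes, had 3.86, 4.87 and 4.71 CPM with siUHRF1, against 65.7, 68.1 and 70.5 CPM with siNC (-3.85 ± 0.07). Its paralog CDCA7L fell by 2.17 ± 0.07 and DNMT3B, a de novo methyltransferase, by 2.49 ± 0.09 on the log2 scale. TDG, a glycosylase of active demethylation, rose by 0.99 ± 0.05, and ZBTB33, a reader of methylated DNA, by 0.89 ± 0.05. USP7, which stabilises UHRF1 and DNMT1, had a log2 fold change of -0.10 ± 0.05 and did not pass the test. It was called lower when scaled by library totals alone (adjusted p = 0.00261) and with at least 50 reads in 3 libraries (0.0497). The same held without siNC replicate 2 (0.0458) and without siUHRF1 replicate 1 (0.0192).

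Other chromatin regulators moved in both directions in some lists and mostly fell in others. In the list of H3K9 methylation and HP1, 8 of 19 rose and 8 fell (median 0.06): the methyltransferases SUV39H1 (-1.74 ± 0.09) and SUV39H2 (-1.79 ± 0.09) fell, while the demethylases KDM4A (0.99 ± 0.06) and KDM4B (1.20 ± 0.07) rose. Of 28 Polycomb genes 13 rose and 9 fell (median 0.04), with the largest falls in PHF19 (-2.14 ± 0.07) and the methyltransferase EZH2 (-1.85 ± 0.06). Of 22 histone chaperones and variants 3 rose and 18 fell, with a median of -1.01. ASF1B, which hands new histones to DNA (-3.23 ± 0.08), HJURP, the chaperone of the centromere (-3.04 ± 0.06), and H2AFX, the damage-marked histone (-2.56 ± 0.06), had the 3 largest falls. None of 17 HMG and nuclear lamina genes rose and 14 fell (median -0.95), LMNB1 and HMGB2 (-2.21 ± 0.06) among them. HDAC7, a class II deacetylase, rose by 1.04 ± 0.05, and in its list of histone acetylation genes 15 of 26 rose and 5 fell.

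These falls came beside a fall of the whole cell cycle programme: 39 of 39 DNA replication genes fell (median -2.48), as did 34 of 34 mitotic genes (median -2.90). In bulk RNA, fewer cells in cycle and less of these transcripts per cell cannot be told apart. The share of any other change that goes with cycling was not tested. Of 28 genes of homologous recombination and the Fanconi pathway none rose and 27 fell, 20 by at least 2-fold (median -1.79), RAD54L (-3.40 ± 0.07), XRCC2 (-3.08 ± 0.08) and FANCI (-2.79 ± 0.05) among them. Exons of LRRC41 on the opposite strand cover 25.2% of RAD54L. End joining and damage signalling was less uniform, with 5 of 24 up and 14 down: POLQ, the polymerase of error-prone end joining, fell by 2.92 ± 0.06 and the kinase gene CHEK2 by 1.59 ± 0.09, while TP53BP1 rose by 0.63 ± 0.05. Of 28 mismatch, base and nucleotide excision repair genes 8 rose and 13 fell, with NEIL3 (-3.49 ± 0.12), UNG (-1.48 ± 0.09) and MSH6 (-1.12 ± 0.05) down and ERCC6 (0.81 ± 0.05) up. Among 23 p53 targets 11 rose and 8 fell. CDKN1A, the p53-induced cell cycle inhibitor, had a log2 fold change of 0.06 ± 0.05 and did not pass the test.

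Among germline and other genes that DNA methylation is known to hold silent, those that passed the filter did not rise as a class. Some of these, such as MAGEA3, MAGEA12 and DMC1, had reads with siNC and so were not silent beforehand. The counts therefore do not describe genes that were silent in these cells. Of 60 listed cancer-testis and germline genes, 20 passed the filter on low counts, and of these 3 rose and 12 fell. The abundant MAGEA3 and MAGEA12, members of 1 gene family whose similar sequences can share reads, changed by -0.16 ± 0.05 and -0.19 ± 0.05. PIWIL4, of the piRNA pathway, rose by 1.07 ± 0.31. DMC1, the meiotic recombinase, had 0 reads in every siUHRF1 library, against 24, 17 and 13 reads with siNC, so it was at least 17.4-fold lower (floor of 3 reads over the siUHRF1 group). Of 31 endogenous retrovirus-derived genes 18 passed the filter, with 6 up and 8 down, beside 32% and 32.7% of all tested genes. The envelope-derived ERVMER34-1 (-2.21 ± 0.09) and ERVMER61-1 (-2.13 ± 0.26) fell, and RTL8A rose by 1.00 ± 0.06.

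Of 40 listed imprinted genes, whose parental copies differ in methylation, 27 were tested. Of these 8 rose and 11 fell, beside 32% and 32.7% of all tested genes, with a median of 0.01. H19, a maternally expressed noncoding RNA, had 0.82, 0.92 and 0.74 CPM with siUHRF1, against 0.23, 0.16 and 0.12 CPM with siNC (2.36 ± 0.43). ZNF331, an imprinted zinc finger gene, had 3.54, 3.09 and 2.93 CPM with siUHRF1, against 25.2, 27.8 and 25.7 CPM with siNC (-2.97 ± 0.09). DIRAS3 fell by 2.02 ± 0.51 and MEST by 1.17 ± 0.05 on the log2 scale, and GNAS, with -0.07 ± 0.05, did not pass the test.

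Protocadherins, cell surface adhesion genes in clusters whose promoter choice is known to involve DNA methylation, rose more often than genes at large. Of 73 listed, 40 passed the filter, 24 rose and 2 fell, and the median was 0.86. With 0.5 CPM added to every value, the family medians of the siUHRF1 libraries over siNC were smaller, at 0.441, 0.408 and 0.299. The clusters were split after the family had been seen. In the beta cluster 10 of 16 tested rose and none fell, and in the gamma cluster 10 of 15 rose and none fell. Of all tested genes 32% rose and 32.7% fell. PCDHGB2 had 4.83, 4.02 and 4.41 CPM with siUHRF1, against 1.18, 0.78 and 1.15 CPM with siNC (2.16 ± 0.18). Up to 45.7% of its exon bases are shared with other gamma genes, so the gamma members are not separate measurements. PCDH7, outside the clusters, rose by 1.12 ± 0.05, while PCDH10 (-1.46 ± 0.29) and PCDH9 (-0.80 ± 0.08) fell. HOX genes went the other way, with 4 of 34 tested up and 15 down: HOXB5 (-1.47 ± 0.20), HOXA11 (-1.33 ± 0.18) and HOXD10 (-1.01 ± 0.06) fell, and HOXA10 (0.59 ± 0.08) and HOXC13 (0.91 ± 0.12) rose. The HOX median, -0.22, was 0.00282 with a filter of at least 50 reads in 3 libraries. An antisense gene covers 31.1% of HOXA11. Genes named ZNF, many of them repressors of retroelements, moved little: 155 of 437 rose, 108 fell, and the median was 0.06, or -0.00687 when scaled by library totals alone.

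Genes that build ribosomes, mitochondria and proteasomes fell together by small amounts, most in siUHRF1 replicate 1. In plain CPM with 0.5 added, medians over siNC in replicates 1, 2 and 3 were -0.686, -0.5 and -0.556 for cytosolic ribosomal proteins. They were -0.579, -0.368 and -0.425 for mitochondrial ribosomal proteins and -0.557, -0.383 and -0.409 for proteasome subunits. Of 86 cytosolic ribosomal protein genes none rose and 83 fell, against 32.7% of all genes, with a median of -0.52. Their summed reads were 1.54 ± 0.11% of all reads with siUHRF1 and 2.28 ± 0.09% with siNC (SD, n = 3 each). RPLP0, a stalk protein, had 362, 435 and 410.2 CPM with siUHRF1, against 780.5, 735 and 772 CPM with siNC (-0.85 ± 0.05), and siUHRF1 replicate 1 was the lowest library. RPS20 (-0.92 ± 0.05) and RPL22 (-1.03 ± 0.06) fell more, RPL4 (-0.27 ± 0.05) less. Ribosomal protein genes have many processed pseudogenes, and reads that fit both can be split between them by the counting. Of 77 mitochondrial ribosomal protein genes 3 rose and 65 fell (median -0.39), with MRPL11 (-1.29 ± 0.06) among the falls. Of 38 NDUF genes of complex I, 1 rose and 26 fell (-0.32), and of 46 other nuclear genes of the respiratory chain and ATP synthase 2 rose and 37 fell (-0.41).

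No proteasome gene of 31 rose and 29 fell, with a median of -0.38. PSMA7, a subunit of its core, had 99.7, 115 and 107 CPM with siUHRF1, against 235, 223 and 232 CPM with siNC (-1.03 ± 0.05). Of 30 ribosome biogenesis genes 2 rose and 19 fell, with NOP56 (-1.25 ± 0.05), NPM1 (-0.83 ± 0.05) and fibrillarin, FBL (-0.78 ± 0.06), down and RRP12 (0.53 ± 0.05) up. Translation initiation and elongation genes followed with 5 up and 16 down of 26, PABPC1 (-0.80 ± 0.05) and EEF1B2 (-0.98 ± 0.05) among the falls. SNHG genes, host genes of small nucleolar RNAs that guide ribosomal RNA modification, had 18 of 25 down and 1 up (median -0.83). SNHG1 had 90.8, 107 and 97.1 CPM with siUHRF1, against 270.4, 312 and 314 CPM with siNC (-1.53 ± 0.06). Purine and pyrimidine synthesis had 23 of 25 down and 1 up (median -0.55), with DUT, the dUTPase, at -2.03 ± 0.07 and PAICS at -1.07 ± 0.05.

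RNA handling genes of the nucleus fell too. Of 36 splicing factors 4 rose and 27 fell (median -0.39), the serine-arginine proteins SRSF1 (-1.01 ± 0.05) and SRSF7 (-1.14 ± 0.05) and HNRNPA1 (-1.05 ± 0.05) among the falls, and CELF1 (0.54 ± 0.05) among the rises. Of 26 nuclear import and export genes 5 rose and 18 fell, with RANBP1 (-1.73 ± 0.05), KPNA2 (-1.34 ± 0.05) and RAN itself (-1.08 ± 0.05) down. Of 29 nucleoporins 7 rose and 21 fell (median -0.50), NDC1 by 1.91 ± 0.06 on the log2 scale. Ubiquitin-specific proteases and TRIM proteins moved the other way, with 27 of 46 up and 10 down and 27 of 49 up and 8 down. TRIM31, a ubiquitin ligase (2.72 ± 0.27), rose, while USP1, which acts on Fanconi proteins (-1.65 ± 0.05), fell.

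**Figure D4:**
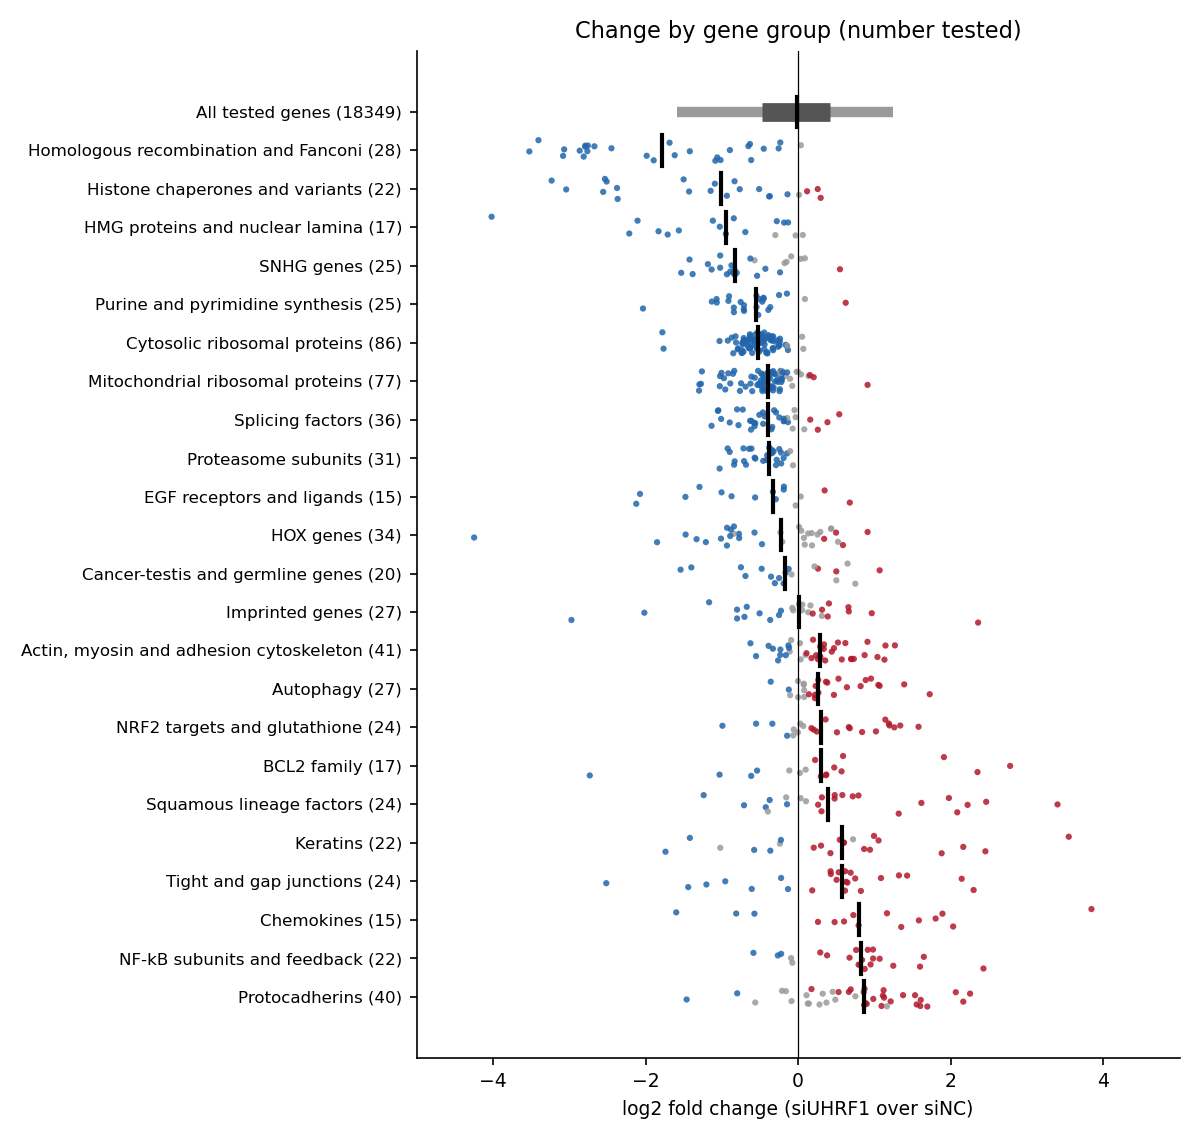
Log2 fold change (siUHRF1 over siNC) of every tested member of 23 gene groups, with the number tested beside each name, red for genes that rose, blue for genes that fell and grey for the rest. Black ticks are medians, and the top row gives the range of all 18349 tested genes from the 5th to the 95th percentile (light bar) and from the 25th to the 75th (dark bar). Medians run from -1.79 for homologous recombination and Fanconi genes to 0.86 for protocadherins, and 1 germline gene, DMC1, lies beyond the left edge.

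EGFR and most measured EGF family ligands and inhibitors fell, while the receptors ERBB2 and ERBB3 rose. Of 15 tested EGF receptors, ligands and inhibitors 2 rose and 11 fell (median -0.33). AREG, the ligand amphiregulin, had 28.7, 33.2 and 35.5 CPM with siUHRF1, against 84.8, 103.5 and 96.5 CPM with siNC (-1.48 ± 0.07). EPGN, another ligand (-2.07 ± 0.37), and LRIG1, an inhibitor of EGFR (-2.12 ± 0.13), fell, and the only rises in the list were ERBB3 (0.68 ± 0.05) and ERBB2 (0.35 ± 0.05). Of 20 genes of ERK feedback and output 4 rose and 11 fell. The phosphatase DUSP6 had 29.1, 31.1 and 34.8 CPM with siUHRF1, against 100.6, 104 and 109 CPM with siNC (-1.65 ± 0.06). PHLDA1 (-1.43 ± 0.05) and cyclin D1, CCND1 (-0.71 ± 0.05), fell as well, and DUSP1, a phosphatase induced by stress, rose by 1.53 ± 0.06.

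NF-kB genes rose. Of 22 subunits and feedback genes 17 rose and 3 fell, against 32% and 32.7% of all genes, with a median of 0.82. TRAF1, an adaptor of TNF receptors, had 100.3, 105 and 100.7 CPM with siUHRF1, against 19.27, 21.4 and 19.04 CPM with siNC (2.43 ± 0.06). SOD2, the mitochondrial superoxide dismutase (1.65 ± 0.06), BIRC3, a ubiquitin ligase of the pathway, and the adhesion molecule ICAM1 (0.91 ± 0.05) also rose, and NFKBIZ (-0.27 ± 0.06) and IER3 (-0.59 ± 0.05) fell. Of 15 chemokines tested of 22 listed, 12 rose and 3 fell (median 0.79), with CXCL11 (1.80 ± 0.07), CX3CL1 (1.89 ± 0.11) and CXCL1 (0.72 ± 0.05) up, and CCL20 (-0.81 ± 0.13) and CCL26 (-1.60 ± 0.34) down. Several of these genes also respond to the interferon that all cells received, and of 61 interferon response genes 57 rose and 2 fell. Of 30 cytokines and growth factors 17 rose and 9 fell: PDGFB (2.04 ± 0.05), IL11 (1.75 ± 0.05) and TNFSF10, the death ligand TRAIL (1.08 ± 0.05), were up and IL1A (-1.80 ± 0.07) down.

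Signalling lists of development held large changes in both directions. In the TGF-beta family list 18 of 34 rose and 10 fell (median 0.35). The ligand TGFB2 (1.94 ± 0.05) and the BMP antagonist GREM1 (3.79 ± 0.27) rose, while TGFBI, a secreted matrix protein induced by the pathway, had 262, 253 and 251 CPM with siUHRF1, against 1114, 1110.5 and 992 CPM with siNC (adjusted p = 1.49e-36), and ID1 fell by 1.61 ± 0.11 on the log2 scale. Of 36 Wnt genes 13 rose and 16 fell, with the ligands WNT10A (1.99 ± 0.06) and WNT6 (2.78 ± 0.33) and the inhibitor DKK1 (1.21 ± 0.05) up and the receptor FZD10 (-2.39 ± 0.16) and the inhibitor SFRP1 (-3.46 ± 0.08) down. Of 29 Notch genes 13 rose and 9 fell: the receptor NOTCH3 rose by 1.82 ± 0.05 and the target NRARP fell by 2.37 ± 0.17. Of 22 retinoid and vitamin D genes 12 rose and 9 fell. The retinoic acid receptor RARB had 1.15, 1.12 and 1.52 CPM with siUHRF1, against 0.10, 0.10 and 0.07 CPM with siNC (adjusted p = 5.53e-12), and STRA6, the retinol importer, rose by 1.53 ± 0.05. In the list of PI3K, AKT and mTOR 20 of 32 rose and 4 fell (median 0.21), PIK3IP1, an inhibitor of PI3K (2.50 ± 0.10), and the IGF-binding protein IGFBP3 (2.42 ± 0.06) with the largest rises among those named.

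Keratin and tight junction genes rose more often than they fell. Of 55 keratin genes 22 passed the filter, 14 rose and 5 fell (median 0.57), though only 2 fell in DESeq2 and the median was -0.0704 with no filter on low counts. Beside KRT17, KRT16 (2.16 ± 0.08), KRT23 (2.45 ± 0.17) and KRT34 (1.88 ± 0.08) rose, and the abundant KRT8 (0.30 ± 0.05) and KRT18 (0.42 ± 0.05) rose less. KRT16 and KRT17 have close copies and pseudogenes that can share reads. Of 24 tight and gap junction genes 17 rose and 7 fell (median 0.57). CLDN4 had 1416, 1497 and 1499.7 CPM with siUHRF1, against 549, 614 and 561 CPM with siNC (1.43 ± 0.05), and CLDN3 (2.14 ± 0.10) and the scaffold TJP3 (2.30 ± 0.10) rose more. GJA1, the gap junction protein connexin 43, had 6.56, 6.48 and 7.31 CPM with siUHRF1, against 38.9, 42.2 and 41.2 CPM with siNC (-2.51 ± 0.07).

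Desmosome and adherens junction genes were mixed, 11 of 23 up and 5 down. NECTIN4 had 78.6, 78.7 and 78.1 CPM with siUHRF1, against 10.3, 13.7 and 9.04 CPM with siNC (2.90 ± 0.11), while NECTIN1 fell by 1.62 ± 0.06 on the log2 scale. Desmocollins diverged: DSC2 rose by 1.55 ± 0.05 and DSC3, of basal cells, fell by 1.32 ± 0.07. Of 24 transcription factors of the squamous lineage 15 rose and 5 fell, among them PRDM1 (2.08 ± 0.09), MAF (2.46 ± 0.17) and the scarce ZNF750 (2.22 ± 0.50), all known in keratinocyte differentiation, while GRHL3 fell by 1.24 ± 0.33. Of 47 genes of the cornified envelope and terminal differentiation only 22 passed the filter, with 9 up and 4 down. The serine proteases KLK10, with 288, 276 and 293 CPM against 58.8, 64.1 and 56.9 CPM (2.32 ± 0.05), KLK8 (2.28 ± 0.25), KLK7 (2.15 ± 0.22) and KLK6 (1.59 ± 0.05) rose, and SPRR2D (-1.44 ± 0.35), a cornified envelope protein, fell. Of 20 antimicrobial genes 7 passed the filter and 6 rose, LYZ (2.43 ± 0.25) and SLPI (1.44 ± 0.11) among them. ABCA12, the lipid transporter of the skin barrier, rose by 2.14 ± 0.06. SOX4, a transcription factor of progenitor cells, had 174, 169.7 and 171 CPM with siUHRF1, against 19.9, 19.5 and 20.4 CPM with siNC (3.18 ± 0.05).

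Actin cytoskeleton genes rose more often than they fell, and cilium genes fell more often than they rose. Of 41 genes of actin, myosin and adhesion 26 rose and 10 fell (median 0.28), with ACTG1 (0.87 ± 0.05), talin, TLN1 (1.13 ± 0.06), and gelsolin, GSN (1.14 ± 0.05), up and MYH10 (-0.63 ± 0.06) down. COL1A1, a fibrillar collagen chain, had 536, 474 and 465 CPM with siUHRF1, against 83.9, 84.96 and 83.7 CPM with siNC (2.62 ± 0.05), while COL13A1 (-2.19 ± 0.10) and COL8A1 (-1.86 ± 0.16) fell. Of 19 integrins 9 rose and 8 fell, ITGB8 (1.67 ± 0.06) up and ITGB5 (-1.72 ± 0.06) and ITGA6 (-1.06 ± 0.05) down. NT5E, the ecto-nucleotidase CD73, had 200.2, 204 and 211 CPM with siUHRF1, against 1115, 1185.5 and 1168 CPM with siNC (-2.42 ± 0.05). In the same list of YAP and TEAD targets 11 of 23 rose and 7 fell, with ANKRD1 (2.00 ± 0.05) up. Of 35 cilium genes 7 rose and 22 fell (median -0.36), ARL3 (-1.42 ± 0.10) and TMEM67 (-1.27 ± 0.08) among them.

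Genes of cell death rose more often than they fell. Of 17 BCL2 family genes 10 rose and 4 fell. The death-promoting members HRK, with 6.08, 5.04 and 5.57 CPM against 0.71, 0.87 and 0.97 CPM (2.78 ± 0.17), BMF (2.35 ± 0.09) and BBC3 (1.91 ± 0.09) rose. The protective members split, with MCL1 (0.59 ± 0.05) up and BCL2L1 (-0.62 ± 0.05) and the scarce BCL2 (-2.73 ± 0.43) down. Exons of ABALON on the opposite strand cover 43.0% of BCL2L1. Of 25 death receptor, caspase and necroptosis genes 19 rose and 4 fell, with CASP10 (1.38 ± 0.06), RIPK1 (0.91 ± 0.05) and the inhibitor CFLAR (1.00 ± 0.05) up, and CASP2 (-0.60 ± 0.06) and the receptor TNFRSF10B (-0.32 ± 0.05) down.

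Autophagy genes rose more often than they fell. Of 27 autophagy genes 18 rose and 2 fell (median 0.26). The cargo receptor SQSTM1 had 1171, 1141 and 1107 CPM with siUHRF1, against 373, 364 and 351 CPM with siNC (1.72 ± 0.05), and the kinase ULK1 rose by 1.39 ± 0.05 and the receptor NBR1 by 1.07 ± 0.05. Exons of MRNIP on the opposite strand, itself lower, cover part of SQSTM1. Of 24 NRF2 target and glutathione genes 15 rose and 4 fell (median 0.30). Both ferritin chains, FTH1 and FTL (1.34 ± 0.05), and the cystine importer SLC7A11 (1.20 ± 0.05) rose, while NQO1 (-0.55 ± 0.05) and PGD (-0.99 ± 0.05), classic targets of NRF2, fell. The list of metallothioneins and metal transport, which also holds the ferritin chains, had 7 of 21 up and 10 down (median -0.23, or 0.0272 with no filter on low counts). In it the ferroxidase ceruloplasmin, CP (3.19 ± 0.18), rose, and the metallothionein MT2A fell by 2.17 ± 0.05 on the log2 scale.

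Metabolic lists were otherwise divided. Cholesterol synthesis and uptake had 15 of 27 up and 6 down, with HMGCS1 (1.41 ± 0.05) and INSIG1 (1.08 ± 0.05) among the rises. Glycolysis had 5 of 20 up and 12 down, with GAPDH at -0.86 ± 0.05 and PKM at 0.16 ± 0.05 (adjusted p = 0.0898 when scaled by library totals alone), and the tricarboxylic acid cycle 3 of 26 up and 16 down. tRNA synthetases had 11 of 16 up and 2 down, led by WARS, which interferon also induces (1.85 ± 0.05). Of 22 unfolded protein response genes 6 rose and 11 fell, with HERPUD1 up (1.79 ± 0.05) and CREB3L2 down (-1.09 ± 0.06). The amino acid importer SLC7A5 fell by 1.12 ± 0.05.

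Polyadenylated transcripts of clustered histone genes did not move as 1 group. Of 89 listed, 54 passed the filter, 18 rose and 20 fell, with a median of -0.12, or 0.227 with the filter of 50 reads. Among all tested genes 32% rose and 32.7% fell. In the large HIST1 cluster 13 of 40 rose and 18 fell, and in the HIST2 cluster 5 of 11 rose and none fell. HIST2H2BE had 293, 303 and 301 CPM with siUHRF1, against 47.9, 51.7 and 47.4 CPM with siNC (2.68 ± 0.05), while HIST1H2BK (-2.68 ± 0.06) and the linker histone HIST1H1C (-1.90 ± 0.05) fell. Most histone messages lack a poly(A) tail, so these libraries hold a small part of them. Of 38 abundant long noncoding RNAs, SNHG genes included, 10 rose and 19 fell (median -0.31). The nuclear MALAT1 and NEAT1 were among the rises, MALAT1 by 1.14 ± 0.05 and NEAT1 by 0.85 ± 0.05.

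The change was set against the effects of siSMYD3 and ASO081, each over its own control, in 1 fit of 16 libraries and 17304 genes. The 3 comparisons share no library. The siUHRF1 effect was higher than the siSMYD3 effect in 4583 genes (26.5%) and lower in 4966 (28.7%), and higher than the ASO effect in 4169 (24.1%) and lower in 4819 (27.8%). Of the 15 largest rises and 15 largest falls, 28 were tested in this fit, and all 28 differed from both SMYD3 effects. These genes were chosen for large siUHRF1 effects in the same libraries, so the choice itself favoured a difference. MMP9 changed by 0.16 ± 0.14 with siSMYD3 and by 0.42 ± 0.28 with the ASO, KRT17 by 0.19 ± 0.14 and 0.00 ± 0.17, and neither passed the test in either. UHRF1 itself fell by 1.68 ± 0.12 on the log2 scale with siSMYD3 and rose by 0.36 ± 0.11 with the ASO.

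Some genes moved in opposite directions or alike. CCL5 fell by 1.24 ± 0.08 with siSMYD3 and rose by 1.18 ± 0.10 with the ASO, and its siUHRF1 effect exceeded these by 5.08 ± 0.12 and 2.65 ± 0.13. GJA1 rose by 1.56 ± 0.07 with siSMYD3, a difference of -4.08 ± 0.11 from the siUHRF1 effect. B2M rose by 0.31 ± 0.08 with siSMYD3 and by 0.34 ± 0.09 with the ASO, and the siUHRF1 effect was lower by 1.06 ± 0.11 and 1.09 ± 0.12. For C3 the siUHRF1 and siSMYD3 effects, 1.48 and 1.46, differed by 0.02 ± 0.12 (adjusted p = 0.904), and for FTH1 they differed by 0.19 ± 0.15 (adjusted p = 0.305), which does not show that they are equal.

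By group, the median change of the 86 cytosolic ribosomal protein genes was -0.53 with siUHRF1, -0.19 with siSMYD3 and 0.12 with the ASO, and the siUHRF1 effect was lower than the siSMYD3 effect in 53 genes and than the ASO effect in 81. Proteasome medians were -0.39, -0.14 and 0.19, with the siUHRF1 effect lower in 24 and 31 of 31 genes. Keratin medians were 0.56, -0.51 and 0.18, and of 28 tested the siUHRF1 effect was higher than the siSMYD3 effect in 16 and lower in 2, and higher than the ASO effect in 9 and lower in 4. Genes of actin, myosin and adhesion had medians of 0.27, -0.08 and 0.01, with the siUHRF1 effect higher in 25 and 20 of 41. EGF receptors and ligands had medians of -0.30, 0.18 and -0.07, with the siUHRF1 effect lower in 11 and 10 of 17. Chemokine medians were 0.75, 0.67 and 0.80, yet gene by gene, of 16 tested, the siUHRF1 effect was higher than the siSMYD3 effect in 6 and lower in 7, and higher than the ASO effect in 4 and lower in 5.

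**Figure D5:**
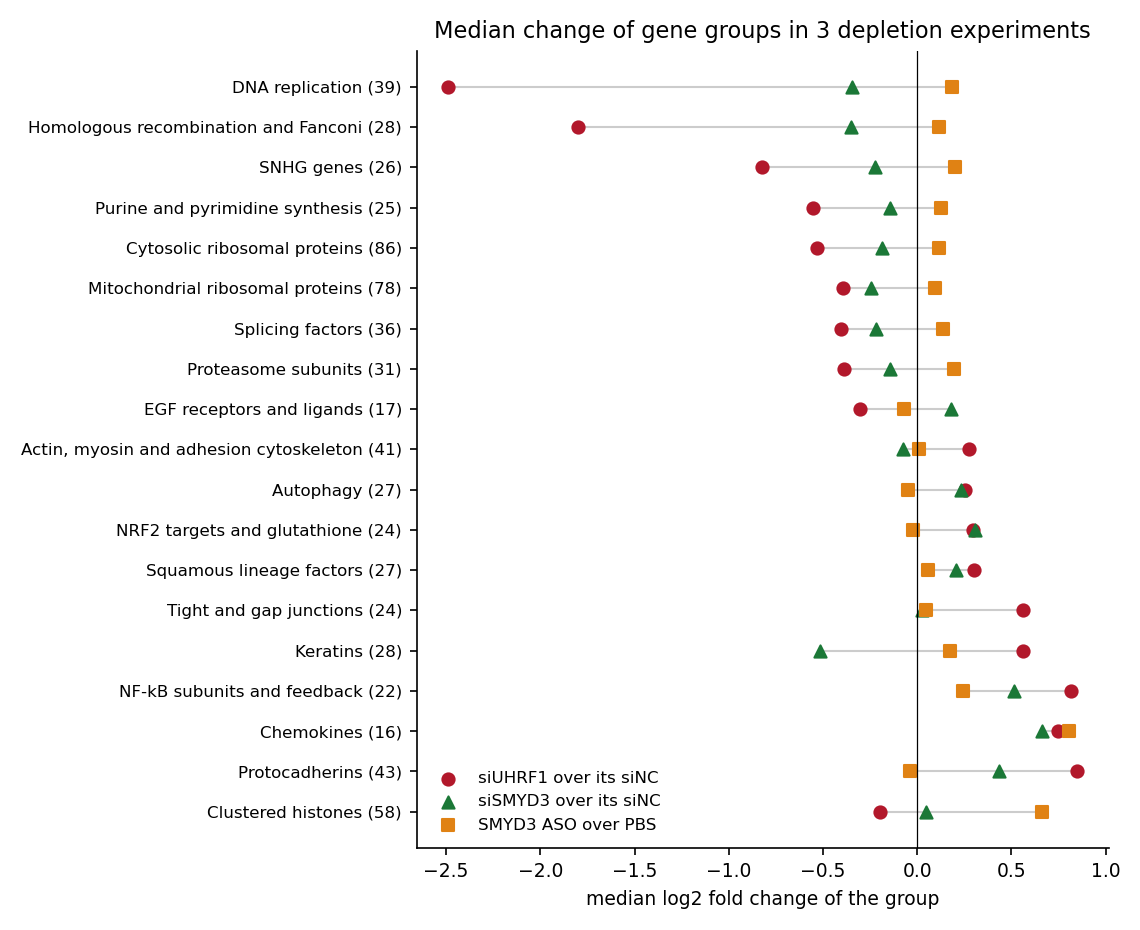
Median log2 fold change of 19 gene groups (number tested in the fit of 16 libraries beside the name) for siUHRF1 over its siNC (red circles), siSMYD3 over its siNC (green triangles) and the SMYD3 ASO over PBS (orange squares). The siUHRF1 medians are the lowest of the 3 for ribosomal, proteasome and splicing genes and the highest for tight junctions, keratins and protocadherins.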

How the data were processed

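Poly(A) RNA of HN-6 cells was sequenced from a stranded mRNA kit, per the labels' protocols. The authors deposited a table of whole-number read counts per gene with a gene length, used as deposited. The submitters' processing notes name bcl2fastq, Bowtie and the build hg38. Their versions and roles, the counting tool, its annotation and its use of strand are not stated in the labels or files, so reads of overlapping antisense genes cannot be told apart. The 57316 gene lines held no mitochondrial reads (37 lines at 0). Counts of siUHRF1 and siNC were tested with edgeR 4.0.16 (R 4.3.3): genes filtered by group, TMM scaling, robust quasi-likelihood fit, Benjamini-Hochberg adjustment over 18349 genes and a threshold of 0.05. Adjusted p-values come from this test unless another setting is named beside them, and those of differences between experiments from contrasts in 1 edgeR fit of 16 libraries. CPM divides by the reads in genes of each library, and TPM uses the deposited length. The fit was tested on simulated data. Alternatives were other scalings and filters, DESeq2 1.42.0, a replicate block and leaving out each library.

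Gene lists (85) and symbol families (31), and the members of all of them, were chosen with earlier results of these data known, and 12 of 2228 list genes had no line. Some items are not reported here. Named genes are UHRF1, the top 15 in each direction of those called whose log2 CPM averaged at least 1, whose groups did not overlap and which had no place in the cell cycle or interferon lists, the 5 largest gains and losses in CPM, and in each list up to 4 called members with the largest change, up to 2 of the other direction and the 2 most abundant. Exon overlaps come from the exon coordinates deposited with the counts, gene types from GENCODE 29 and promoters from RefSeq, GRCh38.p14. Replicate numbers do not pair the libraries: deviations of same-numbered libraries correlated at -0.0049, 0.011 and 0.0077.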

Additional observations from a re-analysis of the deposited data

How the results depend on the processing

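Scaling by library totals alone moved the median of all genes to -0.085 on the log2 scale, against -0.013 as reported, and gave 5182 genes higher and 6737 lower. Of 31 gene families 7.0 then had a median above 0, against 12 as reported, and the medians of Polycomb genes (-0.031) and ZNF genes (-0.00687) turned negative. CDKN1A (-0.00845) also turned, PKM lost its call (0.09), and USP7 (-0.171) and GNAS (-0.137) gained one. With no filter on low counts the medians of cornified envelope genes (-0.0814) and keratins (-0.0704) were negative and that of metallothioneins and metal transport (0.0272) was positive, and with at least 50 reads in 3 libraries those of HOX genes (0.00282) and clustered histones (0.227) were positive. The cause was not tested. Leaving out 1 library at a time gave 5515 to 5756 genes higher and 5718 to 5866 lower and a cornified envelope median of -0.0045 (without siNC replicate 2) to 0.152. With the replicate block 5793 genes were higher and 5914 lower, but the replicate numbers share no deviation, and 1 of 3 siUHRF1 libraries correlated best with its own number. Of 231 called genes named in the text, PKM was the 1 that lost its call under any alternative. The libraries come from 1 line, 1 time and cells that all had interferon-β, and protein and methylation were not measured.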

Other observations

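Early response factors changed in both directions: of 22 AP-1 and early growth response genes 14 rose and 5 fell. The stress-induced factor ATF3 (1.52 ± 0.06) and EGR2 (1.79 ± 0.44) rose, while the AP-1 subunit FOSL1 (-0.69 ± 0.05) and KLF2 (-2.49 ± 0.33), a zinc finger factor, fell. Of 40 SOX and FOX genes 15 rose and 13 fell, beside 32% and 32.7% of all tested genes. FOXI1 (3.93 ± 0.66) was up and FOXM1 (-2.97 ± 0.06), an activator of mitotic genes, and FOXA2 (-4.03 ± 0.37) were down. Of 40 semaphorin, ephrin and guidance genes 19 rose and 11 fell, SEMA3B (2.08 ± 0.05) among the rises.

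Motor and microtubule genes fell more often than they rose. Of 32 kinesins 8 rose and 16 fell, 13 by at least 2-fold, and of 22 tubulins 6 rose and 13 fell. All tested genes had 32% up and 32.7% down. The kinesin genes KIF11, KIF20A, KIF23 and KIF2C are also in the mitotic list, where 34 of 34 fell. The kinesin counts are therefore not separate from the cell cycle. Tubulin genes have close copies that can share reads. Of 22 heat shock chaperones 7 rose and 12 fell.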
